A study of Mus musculus with 20 samples.

Results

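The matrix metalloproteinases (Mmp), the secreted Adamts proteases and the tissue inhibitors of metalloproteinases (Timp) were followed in inguinal subcutaneous white adipose tissue (iWAT), the fat pad of the groin. Members were the protein-coding genes of the mouse assembly NCBIM37 (mm9) annotation whose symbol is Mmp, Adamts or Timp followed by a number, with Mmp12 left out. The rule used names only, and it took 45 of the 22232 protein-coding genes of the table, of 36611 genes in all. They were 22 Mmp, 19 Adamts and 4 Timp genes, and all 45 were in the table.

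The samples were female mice labelled C57BL/6, 6 months old, 20 in all and 5 in each of 4 groups. The floxed line was C57BL/6 N Tac and the Cre line C57BL/6 J. Control mice, labelled wild type, were littermates that carried both floxed Tmem120a alleles (fl/fl) but no Cre. Ad-Tmem120a-/- mice, labelled knockout, carried floxed Tmem120a exons removed by Cre under the Adiponectin promoter, so the deletion acts in adipocytes and the other cells of the pad keep the gene. Each genotype ate 1 of 2 diets for 15 weeks, with 10.5% fat in the low fat diet (LFD) and 58% fat in the high fat diet (HFD). RNA was depleted of ribosomal RNA and sequenced with its strand kept, and each library is 1 mouse (control LFD 1 to 5, knockout LFD 6 to 10, control HFD 11 to 15, knockout HFD 17 to 21).

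Both protease families are secreted or membrane-bound enzymes that cut proteins outside the cell with a zinc ion held by histidines in the active site. Mmp enzymes cut collagens, gelatins and other matrix proteins, and Adamts enzymes cut proteoglycans or trim the ends of procollagens. Timp proteins bind the active site and block it, and in fat the balance of the 3 families takes part in remodelling the matrix around adipocytes as they grow.

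The zinc site is what the proteases have in common, so its coding sequence was read from the annotated transcripts of the same assembly (GENCODE vM1). A site of 33 bases, 11 codons of which 3 code for the binding histidines, was found in 40 of the 41 proteases and in 0 of the 4 Timp genes. The search allowed only glycine or asparagine at codon 8 of the site, so a site with another residue there would be missed. It found none in the coding sequences read for Adamts8, which does not show that Adamts8 lacks a zinc site. Between the 2 residues allowed, codon 8 codes for glycine in the 22 Mmp genes. Of the 17 Adamts sites placed on the genome here, 12 have glycine and 5 have asparagine at that codon. The site lay within 1 exon in 22 of 22 Mmp genes and was split by an intron in 17 of 17 Adamts genes. The sites of the 2 gelatinases and of 4 Adamts proteases with the diet differences given further on are printed, 5′ to 3′ on the coding strand, with the histidine codons in capitals.
Mmp2: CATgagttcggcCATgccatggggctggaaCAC
Mmp9: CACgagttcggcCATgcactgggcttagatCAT
Adamts5: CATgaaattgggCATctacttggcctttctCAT
Adamts15: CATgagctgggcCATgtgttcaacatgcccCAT
Adamts2: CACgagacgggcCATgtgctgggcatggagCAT
Adamts3: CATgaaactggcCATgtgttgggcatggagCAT
The Mmp2 site is at chr8:95363178-95363210 (mm9, plus strand, exon 8 of 13) and the Mmp9 site at chr2:164776633-164776665 (plus strand, exon 8 of 13). The Adamts5 site spans chr16:85878260-85888071 (minus strand, exons 2 and 3 of 8 with the intron between them), and the Adamts15 site chr9:30718840-30719275 (minus strand, exons 2 and 3 of 8). The Adamts2 site spans chr11:50588905-50589636 (plus strand, exons 7 and 8 of 22) and the Adamts3 site chr5:90136458-90136843 (minus strand, exons 8 and 9 of 22). Adamts2 and Adamts3 shared 29 of the 33 bases, Mmp2 and Mmp9 shared 25, and Adamts5 and Adamts15 shared 19.

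The authors' values are estimated counts of read pairs and TPM, a share of all transcripts that is corrected for length, for each transcript, and both were summed per gene. A library held between 54605101 and 92387737 estimated counts in all. Tmem120a was lower than in every control mouse of the same diet in 4 of the 5 knockout mice on HFD (29.5 to 89.7 against 83.3 to 196 TPM) and in 4 of the 5 on LFD (21.5 to 74.0 against 57.9 to 132 TPM). The adipocyte genes Adipoq and Plin1 were present in every library, at 638 TPM or more and 82.3 TPM or more. The labels do not say which mice shared a litter, cage or extraction. The p-values treat each mouse as independent, and any such sharing could not be allowed for.

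Levels spread from 206 TPM for Timp3 to none. Of the 45 genes, 10 averaged 10 TPM or more in the 20 libraries, 14 lay between 1 and 10 TPM, 15 between 0.1 and 1 TPM and 6 below 0.1 TPM. The 10 most abundant were Timp3 (206 TPM), Adamts5 (60.1), Timp2 (56.0), Mmp2 (42.7), Timp4 (38.4), Mmp3 (26.9), Adamts12 (18.7), Mmp19 (16.5), Adamts1 (13.9) and Mmp14 (11.9). Mmp2 and Mmp14 form a known pair, since membrane-bound Mmp14 activates secreted pro-Mmp2 together with Timp2. At the other end Mmp1b was listed at 0 in 20 of 20 libraries. Mmp1a, Mmp20, Mmp21 and Mmp24 were listed at 0 in 19 each, with at most 7 estimated counts in the remaining library.

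**Figure D1:**
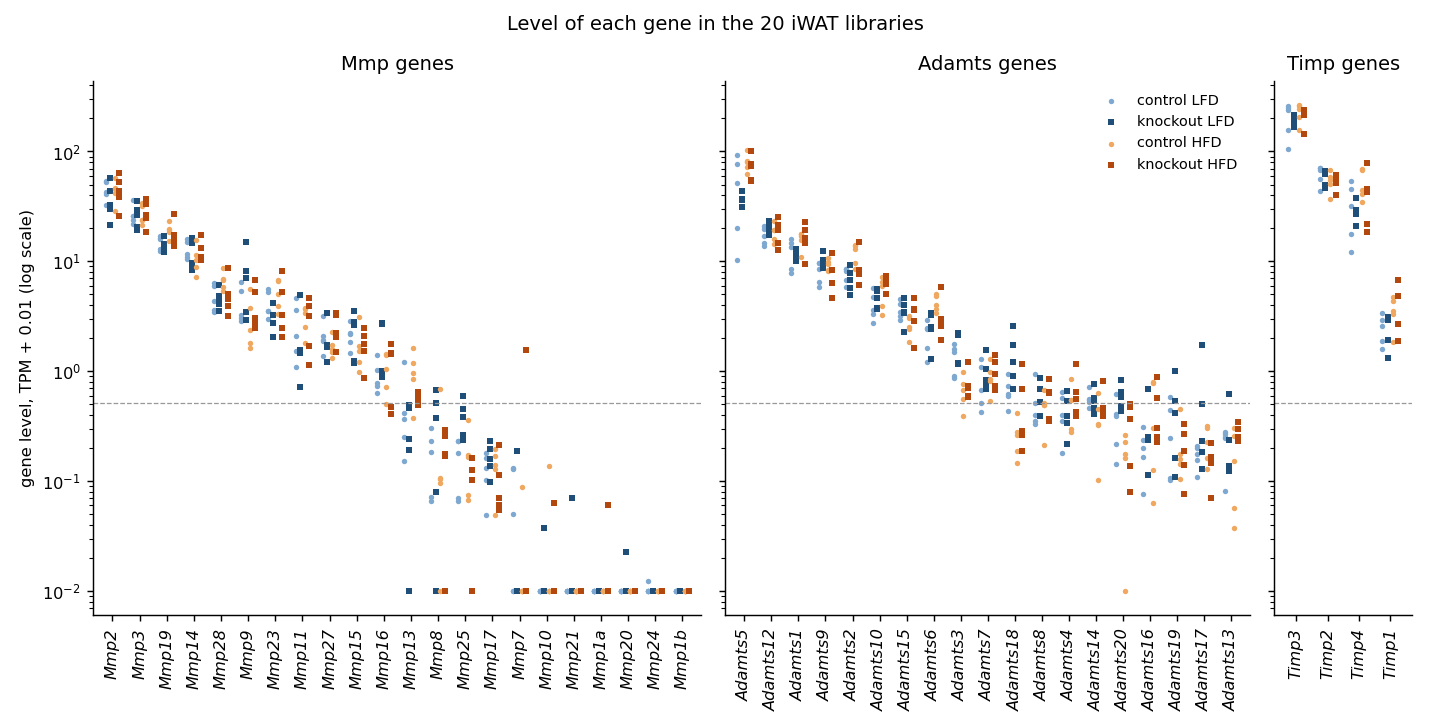
Level of each of the 45 genes in the 20 libraries, as TPM + 0.01 on a log scale, with 1 point per mouse, coloured by group and ordered within each family by mean. The dashed line marks 0.5 TPM; Timp3 and Adamts5 lead, and 6 Mmp genes with means below 0.1 TPM sit on the floor in most libraries.

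A few genes carried most of each family. Timp3, which stays bound to the matrix and also inhibits Adamts proteases, held 67.9% of the summed Timp TPM (56.1% to 76.0% by library). Adamts5, a protease of aggrecan and versican, held 47.2% of the Adamts sum, and its share ran from 15.7% to 60.2%. Mmp2, the gelatinase made by stromal cells, held 35.3% of the Mmp sum (23.9% to 41.0%), followed by Mmp3 at 22.2%. Summed Timp TPM stood at 0.785 to 1.51 times the summed protease TPM across libraries, and these are levels of RNA, not of protein.

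Neighbouring genes differed widely. The cluster read here was the 9 Mmp members on chromosome 9, between 7272514 and 7699585 (mm9), with Mmp12 left out as before. It held Mmp3, a stromelysin that cuts many matrix proteins, at 26.9 TPM. Its closest relative Mmp10 had 0.0104 TPM and was listed at 0 in 17 libraries. Mmp27 had 2.04 TPM, the collagenases Mmp13 and Mmp8 had 0.575 and 0.210 TPM, and Mmp7 had 0.104 TPM. The RefSeq promoter windows given for GRCm38.p6, which held 31 of the 45 genes, were searched for TGACTCA and its reverse complement TGAGTCA, the AP-1 motif. In the 250 bases before the start, the motif was present in 6 of the 31 members and in 4.46% of all 32851 promoters. The 6 were Mmp3, Mmp10, Mmp13, Mmp1a, Mmp1b and Mmp7, all of this cluster, and Mmp8, Mmp20 and Mmp27 of the cluster did not hold these letters. Members with no window, among them Mmp2, Mmp9, Mmp16, Adamts5, Adamts6 and Adamts15, could not be searched. The 120 bases just before the start of a gene of the cluster with a high level, 1 near 0 and 1 between are printed, with the motif in capitals, because the genes with the motif included both Mmp3 and genes with almost no reads.
Mmp3: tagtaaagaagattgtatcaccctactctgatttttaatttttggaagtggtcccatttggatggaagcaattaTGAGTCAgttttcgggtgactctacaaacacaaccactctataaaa
Mmp10: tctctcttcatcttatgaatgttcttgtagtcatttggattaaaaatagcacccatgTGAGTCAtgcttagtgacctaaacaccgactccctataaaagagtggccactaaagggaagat
Mmp13: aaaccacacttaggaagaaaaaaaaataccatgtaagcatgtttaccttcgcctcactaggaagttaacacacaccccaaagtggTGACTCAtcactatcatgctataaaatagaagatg
These windows are chr9:7445702-7445821, chr9:7502222-7502341 and chr9:7272394-7272513 of GRCm38.p6, all on the plus strand. A match of letters is a description of the sequence and does not show binding of a factor.

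Differences between groups were fitted in edgeR (quasi-likelihood) to the estimated counts of all genes that averaged 0.5 TPM or more in the mice compared, after TMM scaling. A gene was called at an adjusted p (Benjamini-Hochberg over all genes tested) below 0.1, and fold changes are log2 of the first group over the second. Of the 45 genes, 30 passed this filter in at least 1 comparison and 15 in none. In a pad of mixed cells, fewer cells of a type and less RNA per cell cannot be told apart.

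Diet gave the differences. Over both genotypes HFD against LFD was called for 8 of 28 tested members, 3 higher and 5 lower, beside 25.2% of all 15574 genes tested (12.5% higher, 12.7% lower), and 9 members had an unadjusted p below 0.05, beside 31.3% of all genes. Adamts5, Adamts2 and Adamts6 were higher on HFD, and Adamts3, Adamts15, Adamts18, Mmp9 and Mmp16 were lower. No Timp gene was among them. The 28 members had a median log2 fold change of 0.02, against -0.03 over all genes tested, and 15 of 28 lay above 0. The share of members called, 28.6%, was near that background.

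**Figure D2:**
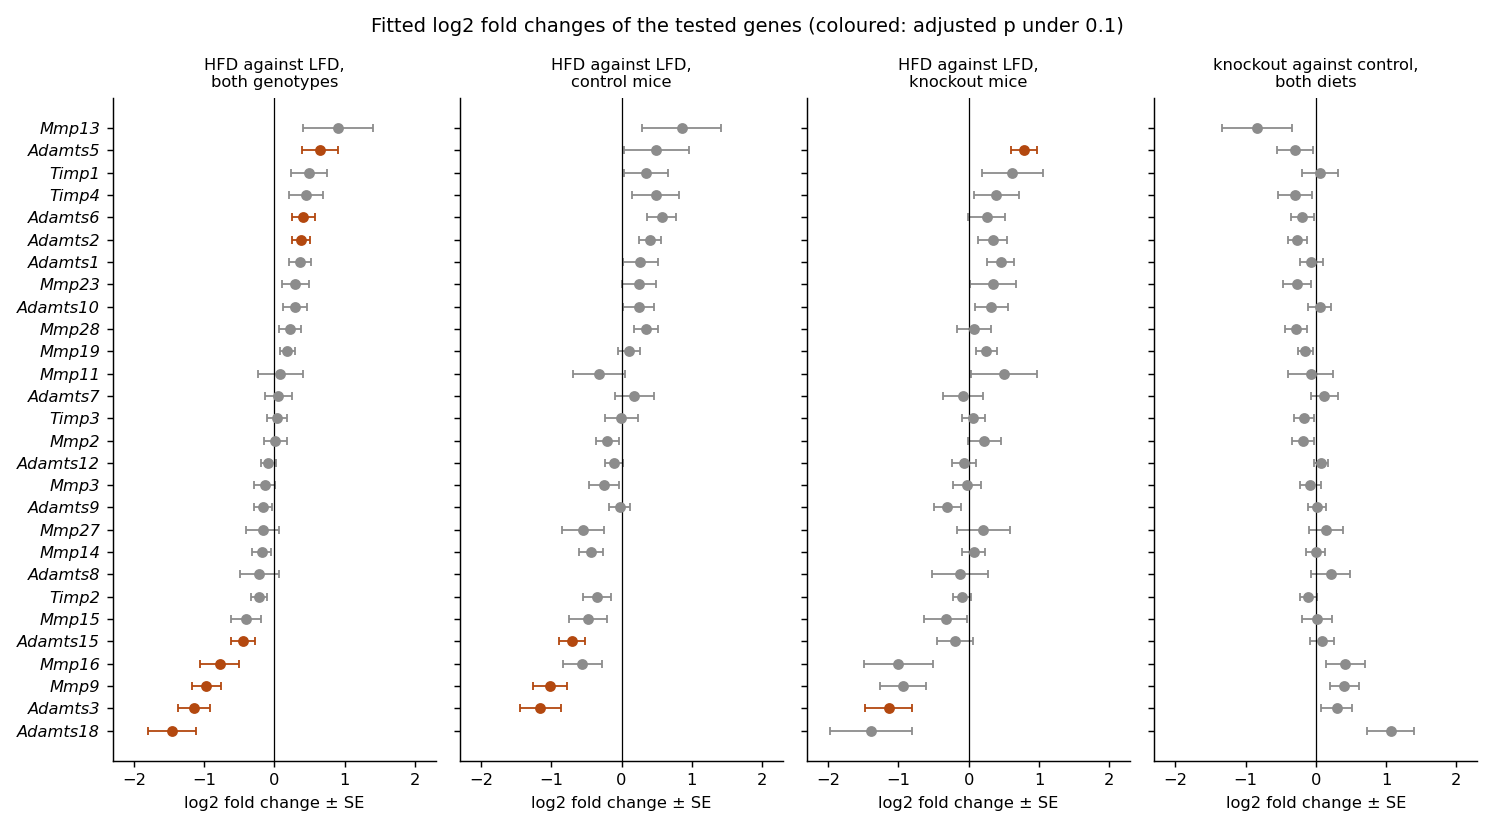
Fitted log2 fold changes (edgeR, horizontal axis, ± standard error) of the 28 members tested over both diets and genotypes, 1 line per gene, for HFD against LFD in all mice, in control mice and in knockout mice, and for knockout against control. Coloured points have an adjusted p below 0.1; the first panel holds 8 of them, the next 3, the third 2 and the genotype panel 0. A gene not tested in a panel has no point.

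Adamts5 was the most abundant protease by mean TPM. On LFD it was 91.9, 51.2, 20.3, 10.2 and 76.3 TPM in control mice 1 to 5 and 37.2, 31.5, 43.9, 36.5 and 43.5 TPM in knockout mice 6 to 10. On HFD it was 71.8, 103, 81.7, 63.0 and 79.4 TPM in control mice 11 to 15 and 54.7, 73.3, 77.4, 54.2 and 101 TPM in knockout mice 17 to 21. All knockout mice on HFD lay above all knockout mice on LFD, while the control mice on LFD ran from the lowest value of the 20 libraries to one of the highest. In knockout mice the fitted log2 change was 0.79 (standard error 0.181, adjusted p = 0.0278, edgeR), from 38.5 ± 5.22 to 72.1 ± 19.2 TPM (SD, n = 5). In control mice it was 0.50 (standard error 0.458, adjusted p = 0.601), from 49.996 ± 35.1 to 79.7 ± 14.8 TPM (SD, n = 5). The difference between the 2 responses was not called (0.27, standard error 0.520, adjusted p = 0.9999, edgeR). Fitting all 20 libraries together took the call in knockout mice away (0.78, adjusted p = 0.218), and the call over both genotypes (0.65, adjusted p = 0.0836) was lost in 11 of 20 fits without 1 library.

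Control LFD mice 3 and 4 stood apart. They held the lowest 2 of 20 values of Adamts1, Adamts5, Adamts7 and Timp4, and the lowest 2 of their group for 9 of the 28 members that averaged 0.5 TPM or more. In control LFD mice 3 and 4 the summed endothelial markers were 138 and 119 TPM against 184 to 215 in the other control LFD mice, and the summed smooth muscle and pericyte markers 207 and 188 against 378 to 430 TPM. Macrophage and lymphocyte markers went the other way. They were 702 and 683 against 457 to 664 TPM, and 66.2 and 73.2 against 2.08 to 57.5 TPM. In the remaining marker lists mice 3 and 4 were not both at the same end of their group. Without both mice, a fit added after the data were seen, the Adamts5 fold change in control mice was -0.04 (adjusted p = 0.950), and over both genotypes it was 0.42 (adjusted p = 0.0887, edgeR). Over both genotypes 9 of 29 tested members were called, 4 higher and 5 lower, beside 1759 higher and 1882 lower of all 15572 genes. Adamts15 lost its call in that fit (adjusted p = 0.166), and Mmp19 (0.27, adjusted p = 0.0820) and Timp2 (-0.31, adjusted p = 0.0634, edgeR) gained one. For Adamts5 the difference between the 2 diet responses was 0.79 in place of 0.27 (standard error 0.291), and knockout against control on LFD was -0.95 in place of -0.43 (standard error 0.229, adjusted p = 0.840, edgeR). Neither was called. The part of these cell markers in the Adamts5 values was not tested.

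Adamts5 (ENSMUSG00000022894, chr16:85858415-85901370, minus strand) lies 55.1 kb from Adamts1, a related protease of versican. Adamts1 had 12.0 ± 3.67 and 11.2 ± 1.18 TPM on LFD in control and knockout mice and 15.8 ± 2.85 and 16.4 ± 4.95 TPM on HFD (SD, n = 5). Its log2 fold change over both genotypes was 0.37 (standard error 0.160, adjusted p = 0.118, edgeR), which missed the threshold. Both genes had their 2 lowest values in control LFD mice 3 and 4.

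The procollagen N-proteinases went both ways. These enzymes remove the N-terminal propeptide of fibrillar procollagens, and Adamts3 also activates the lymphatic growth factor Vegfc. Adamts3 had 1.58, 1.501, 0.886, 0.858 and 1.75 TPM in control mice and 1.17, 2.15, 2.22, 2.16 and 1.14 TPM in knockout mice on LFD. On HFD it had 0.973, 0.384, 0.543, 0.753 and 0.671 TPM in control mice and 0.692, 0.570, 1.20, 0.581 and 0.726 TPM in knockout mice. Only control mouse 11 and knockout mouse 19 on HFD came up to the range of their LFD groups, so the groups overlapped by 1 library in each genotype. Adamts3 fell by 1.16 on the log2 scale in control mice (standard error 0.290, adjusted p = 0.0440), by 1.14 in knockout mice (standard error 0.338, adjusted p = 0.0738) and by 1.14 over both (standard error 0.222, adjusted p = 0.000946, all edgeR). Without 1 library the call was lost in 4 of 10 fits in control mice (adjusted p up to 0.107) and in 8 of 10 in knockout mice (adjusted p up to 0.148, edgeR). The call over both genotypes held in every alternative fit, 27 chosen beforehand and 1 added.

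Adamts2, the main procollagen I proteinase of skin, moved the other way. It had 5.82, 8.53, 8.23, 6.82 and 8.45 TPM in control and 7.81, 6.71, 9.32, 4.88 and 5.75 TPM in knockout mice on LFD. On HFD it had 13.97, 12.9, 13.7, 9.71 and 8.44 TPM in control and 7.82, 7.61, 8.32, 6.09 and 15.0 TPM in knockout mice. In control mice 4 of 5 values on HFD lay above the LFD range, and in knockout mice 1 of 5 did. The log2 fold change over both genotypes was 0.38 (standard error 0.133, adjusted p = 0.0517, edgeR), and without knockout HFD mouse 21 it was 0.28 (adjusted p = 0.116). The third enzyme of this kind, Adamts14, had a mean of 0.488 TPM and passed the filter for diet in knockout mice alone (-0.16, standard error 0.295, adjusted p = 0.841, edgeR).

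Adamts15 and Adamts18 were lower on HFD. Adamts15, a proteoglycan-cutting protease with 1 deposited transcript, had 3.43, 4.51, 3.18, 4.10 and 2.95 TPM in control mice on LFD and 3.18, 3.02, 2.53, 2.43 and 1.84 TPM on HFD. Knockout mice had 3.47, 3.97, 4.65, 3.41 and 2.25 TPM on LFD and 3.62, 1.61, 2.86, 3.69 and 4.63 TPM on HFD, and these ranges overlapped. It fell by 0.70 on the log2 scale in control mice (standard error 0.182, adjusted p = 0.0506), by 0.45 over both genotypes (standard error 0.171, adjusted p = 0.0733), and in knockout mice the value was -0.20 (standard error 0.254, adjusted p = 0.743, all edgeR). Without control LFD mice 3 and 4 the adjusted p was 0.129 in control mice and 0.166 over both genotypes. The call in control mice was also lost without control LFD mouse 2 (adjusted p = 0.115), without control HFD mouse 13 (adjusted p = 0.112) and with limma on log2(TPM + 1) (adjusted p = 0.154). Over both genotypes it was lost in 7 of 20 fits without 1 library, with no filter (adjusted p = 0.109) and with limma (adjusted p = 0.217). The difference between the 2 genotypes' responses was 0.48 (standard error 0.332, adjusted p = 0.9999, edgeR).

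Adamts18 was scarce, at 55 to 684 estimated counts per library. It had 0.614, 0.731, 0.421, 0.931 and 0.579 TPM in control and 1.20, 0.895, 1.74, 2.57 and 0.677 TPM in knockout mice on LFD, and 0.253, 0.406, 0.179, 0.137 and 0.271 TPM in control and 0.177, 1.15, 0.252, 0.678 and 0.274 TPM in knockout mice on HFD. All control mice on HFD lay below all control mice on LFD, while knockout mice 18 and 20 on HFD reached into the LFD range. The gene fell by 1.46 on the log2 scale over both genotypes (standard error 0.339, adjusted p = 0.00408, edgeR), a call kept in the same fits. In control mice alone its mean was below the 0.5 TPM filter, and with no filter it fell by 1.51 (adjusted p = 0.0359, edgeR). Groups that do not overlap were found for 9.78% of the genes tested in control mice (8.32% higher, 1.46% lower on HFD).

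Adamts6, known for a role in fibrillin microfibrils, was the tested member whose 2 control groups did not overlap. It had 1.22, 2.94, 2.43, 2.45 and 1.62 TPM in control mice on LFD and 3.38, 3.68, 4.81, 5.08 and 3.98 TPM on HFD. Knockout mice had 2.497, 2.43, 3.36, 3.25 and 1.28 TPM on LFD and 2.93, 5.82, 2.55, 2.98 and 1.90 TPM on HFD, and these groups overlapped. The fitted change in log2 was 0.57 in control mice (standard error 0.204, adjusted p = 0.135), 0.26 in knockout mice (standard error 0.268, adjusted p = 0.673) and 0.41 over both (standard error 0.161, adjusted p = 0.0789, all edgeR). In control mice the gene was called by DESeq2 (adjusted p = 0.0634), by limma on log2(TPM + 1) (adjusted p = 0.0334), with length offsets (adjusted p = 0.0955) and without mice 3 and 4 (adjusted p = 0.0934), but in none of the 15 other alternatives. Over both genotypes the call was lost in 11 of 20 fits without 1 library and with length offsets (0.52, adjusted p = 0.124, edgeR).

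**Figure D3:**
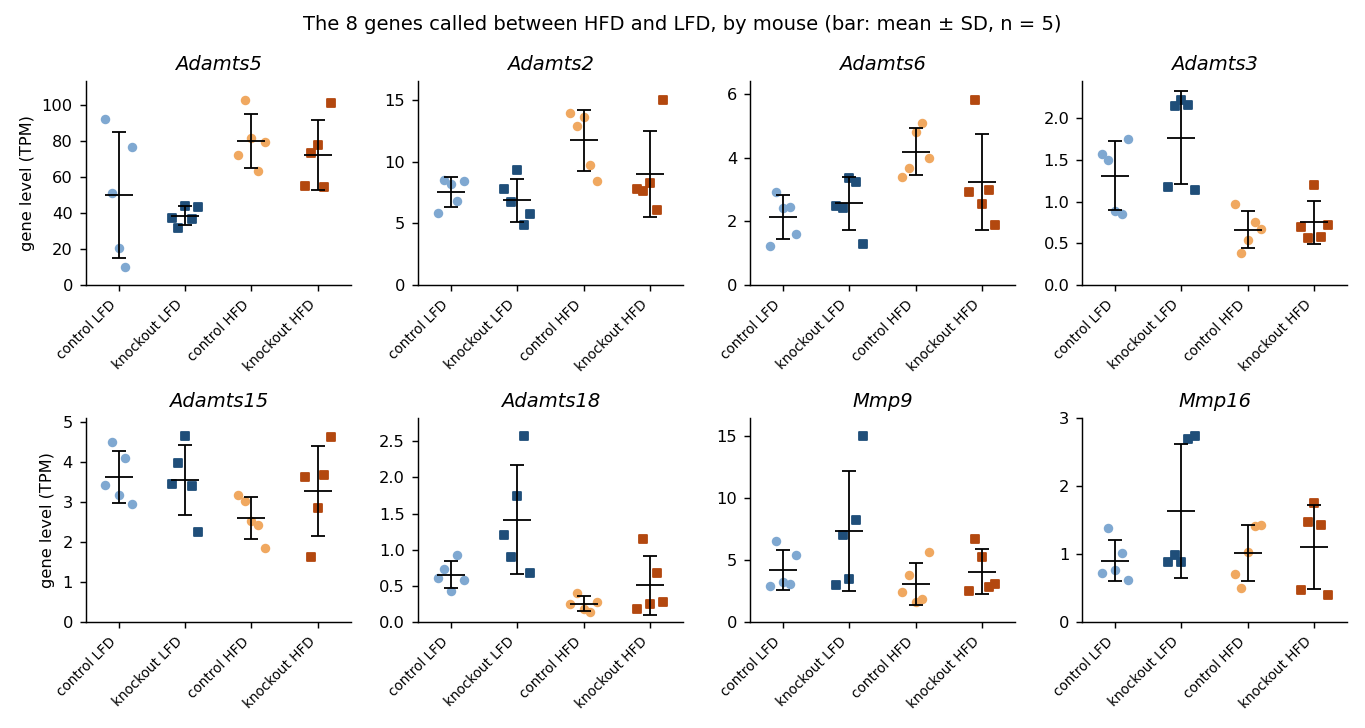
TPM (vertical axes, starting at 0) of the 8 genes called between HFD and LFD over both genotypes, 1 point per mouse in 4 groups of 5, with bars for mean ± SD. The top row shows Adamts5, Adamts2, Adamts6 and Adamts3, the bottom row Adamts15, Adamts18, Mmp9 and Mmp16; Adamts5 runs from 10.2 to 91.9 TPM among control mice on LFD.

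The gelatinases were unlike each other. Mmp9, the gelatinase best known from neutrophils and macrophages, had 2.87, 6.48, 3.24, 3.03 and 5.37 TPM in control and 2.93, 6.998, 3.44, 8.20 and 15.0 TPM in knockout mice on LFD. On HFD it had 2.37, 3.79, 1.62, 1.82 and 5.61 TPM in control and 2.48, 6.71, 5.22, 2.78 and 3.07 TPM in knockout mice, and the diets overlapped in TPM in both genotypes. On estimated counts Mmp9 fell by 1.01 on the log2 scale in control mice (standard error 0.244, adjusted p = 0.0370) and by 0.97 over both genotypes (standard error 0.209, adjusted p = 0.00236), and in knockout mice the value was -0.93 (standard error 0.327, adjusted p = 0.128, all edgeR). With offsets for transcript length the value in control mice was -0.60 (adjusted p = 0.392) and over both genotypes -0.79 (adjusted p = 0.0817, edgeR). With limma on log2(TPM + 1) the values were -0.40 (adjusted p = 0.423) and -0.50 (adjusted p = 0.154), and neither was called.

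The transcripts of Mmp9 (ENSMUSG00000017737, chr2:164766280-164781350, plus strand) were looked at after these values were seen. For 16 transcripts of 6 members, 64 exact tests were made, and p-values adjusted over the 64 were all 0.169 or more. A short transcript with a retained intron, Mmp9-004 (chr2:164776196-164776762), took between 0% and 85.3% of the gene's TPM by library, and the zinc site printed for Mmp9 lies inside it. The full-length transcript, Mmp9-001, had 2.80, 2.497, 2.75, 2.59 and 5.37 TPM in control mice on LFD and 1.80, 0.924, 1.62, 1.82 and 2.15 TPM on HFD, so the 2 groups did not overlap. Its mean was 3.20 ± 1.22 TPM on LFD and 1.66 ± 0.454 TPM on HFD (SD, n = 5, p = 0.00794 on log2(TPM + 1) in a two-sided exact permutation, the smallest this design can give). In knockout mice it was 4.30 ± 2.10 on LFD and 2.27 ± 0.812 TPM on HFD (SD, n = 5, p = 0.0476 by exact permutation). Mmp9-004 was 0.796 ± 1.78 and 1.26 ± 1.74 TPM in control mice on LFD and HFD (SD, n = 5, p = 1.0 by exact permutation).

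**Figure D4:**
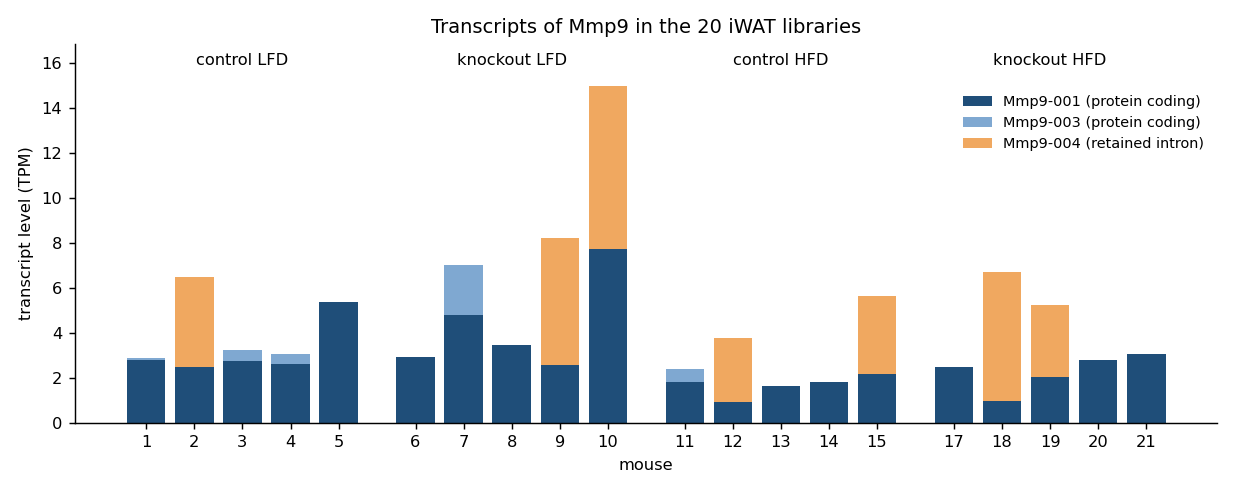
Stacked TPM (vertical axis) of the deposited Mmp9 transcripts in each mouse (horizontal axis), for Mmp9-001, Mmp9-003 and the retained-intron transcript Mmp9-004. The dark bars of Mmp9-001 are 2.497 TPM or more in control mice on LFD and 2.15 TPM or less in control mice on HFD, and Mmp9-004 is absent from many libraries and takes up to 85.3% in others.

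Mmp2 had 42.9, 53.4, 32.4, 53.2 and 40.9 TPM in control mice on LFD and 57.4, 46.4, 45.7, 42.3 and 28.5 TPM on HFD. In knockout mice it had 32.9, 57.4, 44.1, 21.5 and 29.7 TPM on LFD and 52.9, 26.1, 38.9, 44.1 and 63.4 TPM on HFD. The 4 ranges lay over each other, and the log2 fold change over both genotypes was 0.01 (standard error 0.159, adjusted p = 0.966, edgeR).

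Mmp16, a membrane-anchored relative of Mmp14, had 65 to 444 estimated counts per library spread over 6 deposited transcripts. On LFD it had 0.725, 1.39, 0.767, 1.01 and 0.618 TPM in control mice and 0.876, 0.988, 0.888, 2.69 and 2.73 TPM in knockout mice, and on HFD 0.707, 0.495, 1.03, 1.41 and 1.43 TPM and 0.462, 1.47, 1.75, 1.42 and 0.401 TPM. These values overlapped throughout, and in control mice the mean TPM was 0.902 on LFD and 1.01 on HFD while the counts were lower on HFD. On counts it fell by 0.78 on the log2 scale over both genotypes (standard error 0.279, adjusted p = 0.0557), with length offsets the value was -0.34 (adjusted p = 0.561), and without knockout LFD mouse 9 it was -0.54 (adjusted p = 0.123, all edgeR). Its coding transcript Mmp16-001, also singled out afterwards, had 0.876 ± 0.337 TPM on LFD and 0.294 ± 0.261 TPM on HFD in knockout mice, groups that did not overlap (SD, n = 5, p = 0.00794 by exact permutation). In control mice it had 0.633 ± 0.214 and 0.378 ± 0.364 TPM (SD, n = 5, p = 0.183 by exact permutation).

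With all 20 libraries in the edgeR fit the other proteases were not called for diet, and without control LFD mice 3 and 4 Mmp19 was (0.27, adjusted p = 0.0820). Limma on log2(TPM + 1) called 8 members higher over both genotypes in place of 3, and its calls among these other proteases are not listed here. Mmp3 had group means of 26.6 ± 5.601, 26.2 ± 6.78, 27.1 ± 5.52 and 27.8 ± 7.14 TPM (SD, n = 5) in control LFD, knockout LFD, control HFD and knockout HFD mice, and its highest value was 1.98 times its lowest over 20 libraries. Adamts12, which cuts the cartilage matrix protein Comp, was as even, at 12.7 to 25.4 TPM. Mmp14 was 12.8 ± 2.51 and 10.7 ± 3.16 TPM in control and 11.6 ± 3.64 and 12.5 ± 2.89 TPM in knockout mice on LFD and HFD (SD, n = 5). Mmp19 was 14.9 ± 2.09 and 19.2 ± 2.98 TPM in control and 13.8 ± 2.06 and 18.02 ± 5.15 TPM in knockout mice (SD, n = 5). Their log2 fold changes over both genotypes lay between -0.18 for Mmp14 and 0.18 for Mmp19, with adjusted p-values of 0.263 to 0.622 (edgeR). The 10 remaining tested proteases (Adamts7, Adamts8, Adamts9, Adamts10, Mmp11, Mmp13, Mmp15, Mmp23, Mmp27 and Mmp28) had means of 0.531 to 8.86 TPM and fitted diet values from -0.40 for Mmp15 to 0.91 for Mmp13, with adjusted p-values of 0.213 or more. Mmp13, the main collagenase of mice, thus had the highest fitted value of all 28, with a standard error of 0.498. The 17 genes left untested over both diets and genotypes were Mmp25, with its own values further on, 7 Adamts genes (Adamts4, 13, 14, 16, 17, 19 and 20) at 0.223 to 0.491 TPM, and 9 Mmp genes (Mmp1a, 1b, 7, 8, 10, 17, 20, 21 and 24) at 0 to 0.210 TPM.

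With all libraries edgeR called no inhibitor in any comparison. Without control LFD mice 3 and 4 it called Timp2 for diet over both genotypes (-0.31, adjusted p = 0.0634), as it did without mouse 4 alone, and limma on log2(TPM + 1) called Timp1. Timp3 had 251, 259, 156, 105 and 239.9 TPM in control and 194, 169, 214, 179 and 184 TPM in knockout mice on LFD, and 158, 263, 259, 243 and 207 TPM in control and 145, 216, 241, 218 and 223 TPM in knockout mice on HFD. Control mouse 4 was lowest of the 20, and the log2 fold change for diet over both genotypes was 0.04 (standard error 0.140, adjusted p = 0.9005, edgeR). Timp2, which helps Mmp14 activate Mmp2, ran from 37.1 to 71.3 TPM, with a diet value of -0.22 (standard error 0.118, adjusted p = 0.207). Timp4, a Timp known from heart and fat, had 32.2, 45.2, 17.8, 12.1 and 54.2 TPM in control mice on LFD and 69.3, 40.7, 68.2, 34.6 and 44.5 TPM on HFD. Knockout mice had 20.8, 27.8, 37.6, 27.1 and 29.6 TPM on LFD and 45.1, 21.97, 42.6, 18.4 and 77.8 TPM on HFD. The Timp4 means were higher on HFD in both genotypes but the groups overlapped, and the fitted log2 change was 0.45 (standard error 0.244, adjusted p = 0.219, edgeR). Timp1, the secreted inhibitor that inflammation is known to raise, was low in all groups, at 2.46 ± 0.735, 2.43 ± 0.781, 3.56 ± 1.124 and 4.22 ± 1.94 TPM (SD, n = 5) in control LFD, knockout LFD, control HFD and knockout HFD mice (log2 fold change 0.49, standard error 0.257, adjusted p = 0.197, edgeR).

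Within one genotype fewer members passed. In control mice HFD against LFD was called for 3 of 26 tested members, 0 higher and 3 lower (Adamts3, Adamts15 and Mmp9), beside 9.32% of all 15311 genes tested (4.42% higher, 4.90% lower). In knockout mice it was called for 2 of 29, Adamts5 higher and Adamts3 lower, beside 9.40% of 15705 genes (4.55% higher, 4.85% lower). Unadjusted p-values below 0.05 were found for 6 of the 26 and 5 of the 29, beside 20.7% and 19.8% of all genes. Medians over the tested members were -0.01 in control and 0.07 in knockout mice, against -0.04 and 0.00 over all genes. The 2 comparisons have no mice in common. With limma on log2(TPM + 1), whose values are not scaled between libraries, the median of all genes was 0.13 in control mice. All-gene calls in control mice were 1640 higher and 363 lower in place of 676 and 751. Over both genotypes, member calls were 8 higher and 2 lower of 28 in place of 3 and 5. All-gene calls over both genotypes were 3522 higher and 1221 lower of 15574, in place of 1954 and 1977. Each of the 8 genes called over both genotypes kept its direction in that fit.

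Knockout against control gave no call. On HFD 0 of 28 tested members were called by edgeR, beside 0.00657% of all 15228 genes tested, and 0 had an unadjusted p below 0.05 (4.66% of all genes). On LFD it was 0 of 28, beside 0.00636% of 15717 genes, with 1 unadjusted p below 0.05 (5.11% of all genes), that of Adamts18 (log2 fold change 1.005, standard error 0.382, adjusted p = 0.929, edgeR). That count on LFD was 0 without control mouse 3 or knockout mouse 9 and 3 without control mouse 4 or knockout mouse 7. Of all genes, 510 of 15754 and 632 of 15664 lay below 0.05 in the first 2 of these fits. In the last 2 it was 776 of 15727 and 1064 of 15538. Without control mice 3 and 4 together that count of members on LFD was 7 of 29 (Timp2, Timp3, Timp4, Adamts1, Adamts5, Adamts18 and Adamts20), with none called (adjusted p of 0.840 or more, edgeR). The share of all genes below 0.05 was not taken in that fit. Both mice were left out after Adamts1, Adamts5 and Timp4 were seen to be lowest in them. The 7 are therefore no result about the members. Over both diets 0 of 28 were called, beside 0.0385% of 15574 genes (0.0257% higher, 0.0128% lower), and Adamts18 again had the 1 unadjusted p below 0.05 among the members, beside 7.44% of all genes (1.07, standard error 0.336, adjusted p = 0.470, edgeR). The genotype effect was not called as different between the diets for any of 28 members, nor for any of 15574 genes (0%), with 0 unadjusted p below 0.05 among the members and 3.60% among all genes. Without 1 library these unadjusted counts of members reached 2 on HFD (without knockout mouse 18 or 21), 5 over both diets (without knockout HFD mouse 21) and 3 for the difference (without knockout LFD mouse 7), with 0 called. In the same fits 529 of 15193 and 1455 of 15245 of all genes lay below 0.05 on HFD. Over both diets it was 1673 of 15577 genes, and for the difference 632 of 15466. DESeq2 and limma called 0 members in each of these 4 comparisons. On HFD the genotypes overlapped in TPM for 28 of 28 tested members, while 0.690% of all genes parted (0.538% higher, 0.151% lower). Fitted genotype values of the members ran from -0.79 for Mmp13 to 0.53 for Mmp27 on HFD and from -0.47 for Mmp11 to 1.005 for Adamts18 on LFD. With 5 mice in a group a p that misses the threshold does not show that the genotypes are alike.

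Mmp25, a membrane-anchored enzyme best known from leukocytes, lay below the filter but parted the groups. It had 0.229, 0.377, 0.446, 0.590 and 0.250 TPM in knockout mice on LFD, above the 0.0561, 0.220, 0.170, 0.223 and 0.0600 TPM of control mice on LFD and above the 0.115, 0, 0.0927, 0.153 and 0.116 TPM of knockout mice on HFD. Groups that do not overlap occurred in 1.40% of genes tested for the genotype on LFD (1.30% higher, 0.102% lower) and in 7.95% of those tested for diet in knockout mice (5.01% higher, 2.94% lower). With no filter on low values the log2 fold changes were 1.26 (adjusted p = 0.703) and -2.06 (adjusted p = 0.275, edgeR). At 0 to 144 estimated counts per library, a difference of this size was not called.

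Summed levels of the families did not part the groups after adjustment. The Adamts sum was 110.0 ± 40.3 TPM on LFD and 151 ± 20.7 TPM on HFD for the controls (SD, n = 5, p = 0.0873 by exact permutation, adjusted p = 0.524 over the 12 sums), and 106 ± 8.61 and 142 ± 34.7 TPM in knockout mice (SD, n = 5, p = 0.0318 in the exact test, adjusted p = 0.381). Adamts5 made up much of this: without it the log2 differences were 0.25 in control mice and 0.04 in knockout mice, in place of 0.53 and 0.39. The Mmp sum was 121 ± 18.8 and 125 ± 21.8 TPM in control mice and 113 ± 26.9 and 126 ± 30.4 TPM in knockout mice on LFD and HFD (SD, n = 5). The Timp sum was 299 ± 95.5 and 335 ± 46.2 TPM in control mice and 274 ± 24.3 and 308 ± 47.4 TPM in knockout mice (SD, n = 5). For the 10 other sums p lay between 0.198 and 0.976 by exact permutation. Knockout HFD mouse 21 held the highest Mmp and Adamts sums of the 20, at 174 and 196 TPM, and the highest value of 11 of the 28 members that averaged 0.5 TPM or more, while no other library held more than 3.

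**Figure D5:**
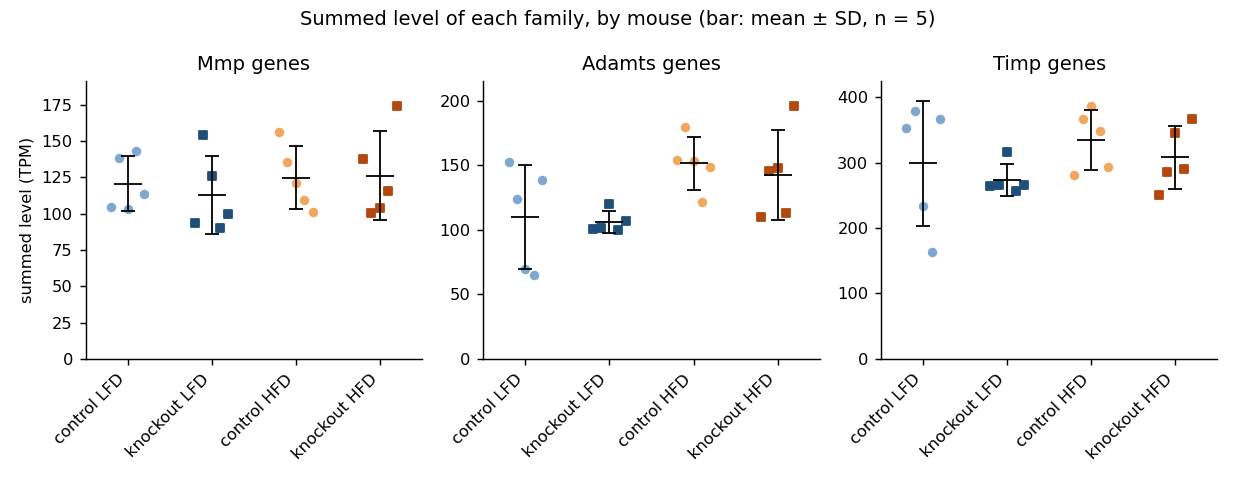
Summed TPM (vertical axes, starting at 0) of the 22 Mmp, 19 Adamts and 4 Timp genes, 1 point per mouse in 4 groups of 5, with bars for mean ± SD. The 5 knockout mice on LFD sit between 99.6 and 120.4 TPM for Adamts, and control mice on LFD spread from 65.0 to 153 TPM.

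Lists of other genes around these proteases, chosen with earlier results of these data known, were read in the same fit. Of 19 activators and other inhibitors, 14 were tested over both genotypes and 5 were called higher and 2 lower on HFD, beside the background of 25.2%. Among them, Serpine2, a secreted inhibitor of serine proteases, and the matrix-binding protein gene Sparc were higher by 1.40 and 1.28 on the log2 scale (edgeR), as were Pcsk6, a convertase, by 0.52 and the plasminogen activator Plau by 0.43. Lrp1, the receptor that clears several of these proteases, fell by 1.15, and Reck, a membrane-anchored Mmp inhibitor, fell by 0.45. The most abundant of the list were Sparc at 720.0 TPM, Bsg at 67.8 TPM and Thbs1 at 37.7 TPM.

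These counts stand beside the same background (12.5% higher, 12.7% lower). Among 19 matrix substrates, 17 were tested, 4 were called higher (Col4a1, Col4a2, Eln and Bgn) and 3 lower (Col1a1, Fn1 and Vwf). Basement membrane Col4a1 rose by 0.81 on the log2 scale and fibrillar Col1a1 fell by 0.90, with adjusted p-values of 0.00119 and 0.000350 (edgeR). Dcn at 1804 TPM, Col3a1 at 391 TPM and Lum at 188 TPM were the most abundant and were not called. Of 7 Adamts-like genes, which lack a protease domain, 6 were tested, with Adamtsl3 higher and Adamtsl1 and Thsd4 lower. Of 9 membrane-bound Adam proteases, all 9 tested, Adam8 and Adam9 were higher by 1.06 and 0.53 and Adam33 fell by 0.40. All of these called genes kept their direction in every fit tried.

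Summed markers of cell types were read beside these values, and 1 list parted the diets while the others overlapped. The summed white adipocyte markers (7 genes) ran from 13111 to 20456 TPM on LFD and from 17488 to 28796 TPM on HFD. Those of fat progenitors and fibroblasts (8 genes) ran from 670.2 to 1143 TPM on LFD and from 1156 to 1417 TPM on HFD, without overlap. The gap was narrow, and these sums are not scaled between libraries. Over both genotypes 3 of the 8 were called higher and 1 lower, beside the 25.2% of all genes. In control mice it was 0 higher and 1 lower, beside 9.32% of all genes, and in knockout mice 3 and 0, beside 9.40%. Endothelial markers (6 genes) ran from 119 to 215 TPM on LFD and from 189 to 310.4 TPM on HFD, and smooth muscle and pericyte markers (5 genes) from 188 to 430 and from 358 to 639 TPM. Macrophage markers (7 genes) overlapped, at 450.0 to 768 and 551 to 801 TPM. Neutrophil markers (9 genes) were low, at 6.29 to 29.2 and 8.03 to 36.8 TPM. Their mean sums were 10.6 and 16.4 TPM in control and knockout mice on LFD and 16.2 and 21.8 TPM on HFD. Knockout LFD mouse 10, the library with the highest Mmp9, had 29.2 TPM of neutrophil markers, the most on LFD, and knockout HFD mouse 19, with the most of all at 36.8 TPM, had 5.22 TPM of Mmp9. Lymphocyte markers (5 genes) ran from 2.08 to 86.1 TPM on LFD and from 9.64 to 86.1 TPM on HFD. The part of these cell types in the diet differences of the proteases was not tested.

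Other marker lists were high in single libraries. Skeletal muscle fibre markers (6 genes) reached 2319.9 TPM in control LFD mouse 5 and 1038 TPM in knockout HFD mouse 17, against 4.59 TPM in the lowest library. On HFD they ran from 4.59 to 37.7 TPM in control and from 30.2 to 1038 TPM in knockout mice. On LFD they ran from 7.19 to 2319.9 TPM in control and from 12.1 to 737 TPM in knockout mice. None of these markers was called for genotype on either diet. Hair and epidermis markers (6 genes) reached 195 TPM in knockout LFD mouse 7 and 85.4 TPM in knockout HFD mouse 18, and were at most 8.41 TPM in the other libraries. Knockout HFD mouse 18 was also the library with 1.54 TPM of Mmp7, where the next highest, 0.180 TPM, was in knockout LFD mouse 7, and with the highest Adamts6 of its group. Mammary and glandular epithelium (10 genes) and Schwann cell markers (5 genes) overlapped between the diets, at 172 to 529 and 13.1 to 30.3 TPM.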

How the data were processed

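RNA-seq of iWAT from 20 mice in 4 groups of 5 was used. The authors deposited TPM and estimated counts per transcript, from Salmon 0.13.1 on mm9 transcripts with no scaling between libraries. STAR 2.5.3 is also named in the submitters' processing notes, and the files do not show whether its filters acted on these values. Of 96533 transcripts, 94334 (97.7%) were matched to GENCODE vM1 (NCBIM37) and summed per gene. The estimated counts were rounded and tested in edgeR 4.0.16 (quasi-likelihood, TMM, mean of at least 0.5 TPM), with limma 3.58.1, DESeq2 1.42.0, size factors, length offsets, no filter, the newer quasi-likelihood method, 1 fit of all 20 libraries, a threshold of 0.05 and leaving out each library as alternatives (R 4.3.3). Pairs of groups were fitted alone, and both diets or both genotypes with the other factor as a term. For family sums, all assignments of mice to groups were enumerated in a two-sided exact permutation test (Python 3.11.15, scipy 1.17.1), adjusted over 12 sums.

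Members given in full were those called, those whose groups did not overlap, the 10 highest and the 4 Timp genes. Members, lists and tests were chosen with earlier results of these data known. The lists held 128 genes, all matched, Adgre1 by its older symbol. The fits were tested on simulated data. Estimated counts spread reads of shared exons over transcripts by a model, so depth bounds only counting error. No batch is given in the labels. Promoter windows came from RefSeq (GRCm38.p6) and were not placed on mm9, and protein sequences were not used here. The values of 1 gene of the lists are not reported here.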

Additional observations from a re-analysis of the deposited data

Results flagged for a closer look

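In 88 groups of 5 values (the 19 genes given in full and the 3 sums, in 4 groups each), 6 had a sample far from the other 4 by the gap to its neighbour over the whole range. Chance gives about 1 in 20. Of these, 5 were in knockout mice on HFD. Adamts2 was 15.0 TPM in mouse 21 against 6.09 to 8.32 TPM in the other 4, and Mmp19 was 26.8 TPM in the same mouse against 13.8 to 17.4 TPM. Adamts3 was 1.20 TPM in mouse 19 against 0.570 to 0.726 TPM. Adamts6 was 5.82 TPM in mouse 18 against 1.90 to 2.98 TPM. Timp3 was 145 TPM in mouse 17 against 216 to 241 TPM. On LFD the Timp sum was 317 TPM in knockout mouse 8 against 256 to 266 TPM in the other 4. No member's genotype effect was called as different between the diets.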

How the results depend on the processing

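No paired analysis was possible because the groups share no replicate numbers. Over 14 fold changes of named members and 336 alternative fits, 267 kept their side of the threshold, 65 fell short of it, 4 newly passed it and 0 changed direction. The calls of Adamts3 and Adamts18 over both genotypes held in every fit. With DESeq2 the members called were 5 in control mice (2 higher, 3 lower) and 4 in knockout mice (1 higher, 3 lower), in place of 3 and 2. At an adjusted p under 0.05 they were 2 in control mice, 1 in knockout mice and 3 over both genotypes, in place of 3, 2 and 8. Leaving out 1 library gave 1 to 5 in control mice, 1 to 2 in knockout mice, 5 to 9 over both genotypes and 0 in each genotype comparison. The lowest counts came without control LFD mouse 2 or control HFD mouse 13 (1 each), without knockout LFD mouse 6, 8, 9 or 10 or knockout HFD mouse 20 or 21 (1 each), and without control LFD mouse 2 or knockout HFD mouse 19 (5 each), and the highest in control mice without control HFD mouse 11 (5). Fitting all 20 libraries together took the Adamts5 call in knockout mice away (adjusted p = 0.218, edgeR, range 0.000780 to 0.218 over its alternatives). That fit called 0 members higher and 3 lower in knockout mice, in place of 1 and 1, beside 1034 higher and 1066 lower of all 15705 genes. Adamts5 over both genotypes kept its call in 9 of 20 fits without 1 library and Adamts6 in 9 of 20. Over all genes, DESeq2 called 79 higher and 21 lower in knockout mice on HFD (1 and 0 by edgeR), 13 and 4 on LFD (1 and 0), 22 and 10 over both diets (4 and 2), 5 and 9 between the diets' genotype effects (0 and 0), and 1056 and 1149 for diet in control and 1035 and 1212 in knockout mice, and with no filter or the newer method edgeR called 23 and 3 or 32 and 2 on HFD, and no member was among the genotype calls. Some sums that were not called changed sign: the Mmp sum for genotype on HFD, 0.00432 as reported, was -0.0233 with TPM scaled by TMM, -0.00156 without Mmp2 and -0.0172 as a mean over members, and scaling by TMM gave -0.12 for the Mmp sum and diet in control mice (0.04 as reported) and -0.0791 for the Adamts sum and genotype on LFD (0.03 as reported). The causes were not tested. Without 1 library the sums for genotype on HFD lay between -0.12 and 0.0887 (Mmp), -0.23 and -0.03 (Adamts) and -0.19 and -0.05 (Timp), and on LFD between -0.23 and -0.04, -0.14 and 0.17, and -0.26 and 0.0409. For diet they lay between -0.041 and 0.11, 0.37 and 0.67, and 0.02 and 0.32 in control mice, and between 0.04 and 0.28, 0.27 and 0.48, and 0.09 and 0.23 in knockout mice. The 0.5 TPM filter left 15 genes out of every comparison, 5 of which (Mmp1a, Mmp1b, Mmp20, Mmp21 and Mmp24) held at most 7 counts in every library.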
